A study of Mus musculus with 6 samples.

Results

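The genes described here encode the nuclear-encoded subunits of the mitochondrial respiratory chain and of ATP synthase. They were taken by symbol alone: names that begin with Nduf followed by a, b, c, s or v and a digit, the 4 Sdh genes, and names that begin with Uqcr, with Cox and a digit from 4 to 8, or with Atp5. Among genes with a probe set of 1 gene symbol, this gave 81 of 19938: 35 of complex I, 4 of complex II, 8 of complex III, 17 of complex IV and 17 of complex V. Dermal cells from the skin of neonatal C57BL/6 mice had been cultured for 2 days either with forskolin and RepSox, each at 20 µM (FR, 3 arrays), or without them (3 arrays titled DMSO, after the solvent). Forskolin switches on adenylyl cyclase, the enzyme that makes cyclic AMP, and RepSox blocks the kinase of the TGF-β receptor ALK5. The compounds were given together, so their separate effects cannot be told apart. Expression is the log2 RMA level of a probe set, a change is the mean of the FR arrays less that of the DMSO arrays on that scale, and n = 3 arrays per group throughout.

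Complex I passes electrons from NADH to coenzyme Q, and complex II does the same from succinate. Complex III carries them on to cytochrome c, complex IV hands them to oxygen, and complex V, the ATP synthase, uses the proton gradient that complexes I, III and IV build up. The coactivator PGC-1α, encoded by Ppargc1a, is a cyclic AMP-responsive inducer of many of these genes in brown fat and muscle. Several complex IV subunits exist as a common form and as a second form used by muscle, brown fat, testis or lung.

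The arrays were alike in overall scale, with medians over all probe sets of 5.98 to 6.00 in DMSO and 6.01 to 6.07 in FR. The 8 dermal fibroblast markers had a mean level of 10.9 to 11.0 on the DMSO arrays and 10.9 on each FR array, and 3 of them rose and 4 fell. Markers of other cell types moved with the treatment. All 6 adipocyte markers rose (mean level 7.07 to 7.19 in DMSO, 9.0 to 9.19 in FR), as did all 6 keratinocyte markers (6.68 to 6.83, then 8.49 to 8.54) and 5 of 6 skeletal muscle markers (6.08 to 6.31, then 7.37 to 7.52). Of 4 endothelial markers, Emcn and Tek passed as higher, with both group means of each in the background range. Of 3 macrophage markers none passed in limma, at an unadjusted p under 0.05 also 0. Their part in the results below was not tested, and in these bulk samples a shift in the share of a cell type cannot be told apart from a shift in RNA per cell.

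Most subunit genes moved little. Of the 81 genes, 13 rose and 2 fell at an adjusted p under 0.05, which is 18.5%, beside 27.9% of all genes tested (13.4% higher and 14.5% lower). The median change of the subunit genes was 0.10, beside 0.05 over all genes, and their middle 50% of changes lay between -0.02 and 0.20, beside -0.14 and 0.20 over all genes. Cox6b2 was the single subunit gene with a change of at least 2-fold. For 69 of the 81 the 95% interval of the change lay within 0.5 of zero, which held for 67.8% of all genes. The FR arrays lay wholly above the DMSO arrays for 34 subunit genes, beside 23% of all genes, and wholly below for 7, beside 20.9%, or 43.9% of all genes in either direction. The count of 13 rises became 7 without DMSO replicate 1 and 7 without DMSO replicate 2, and 21 with cyclic loess and 24 (with 5 falls) with a variance trend and robust moderation, and the 2 falls became 1 when DMSO replicate 3, or FR replicate 1 or 3, was left out. With arrays centred on their medians, 9 subunit genes rose and 4 fell and their median change was 0.0452, while over all genes the split went from 2671 higher and 2888 lower to 1880 and 3447.

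**Figure D1:**
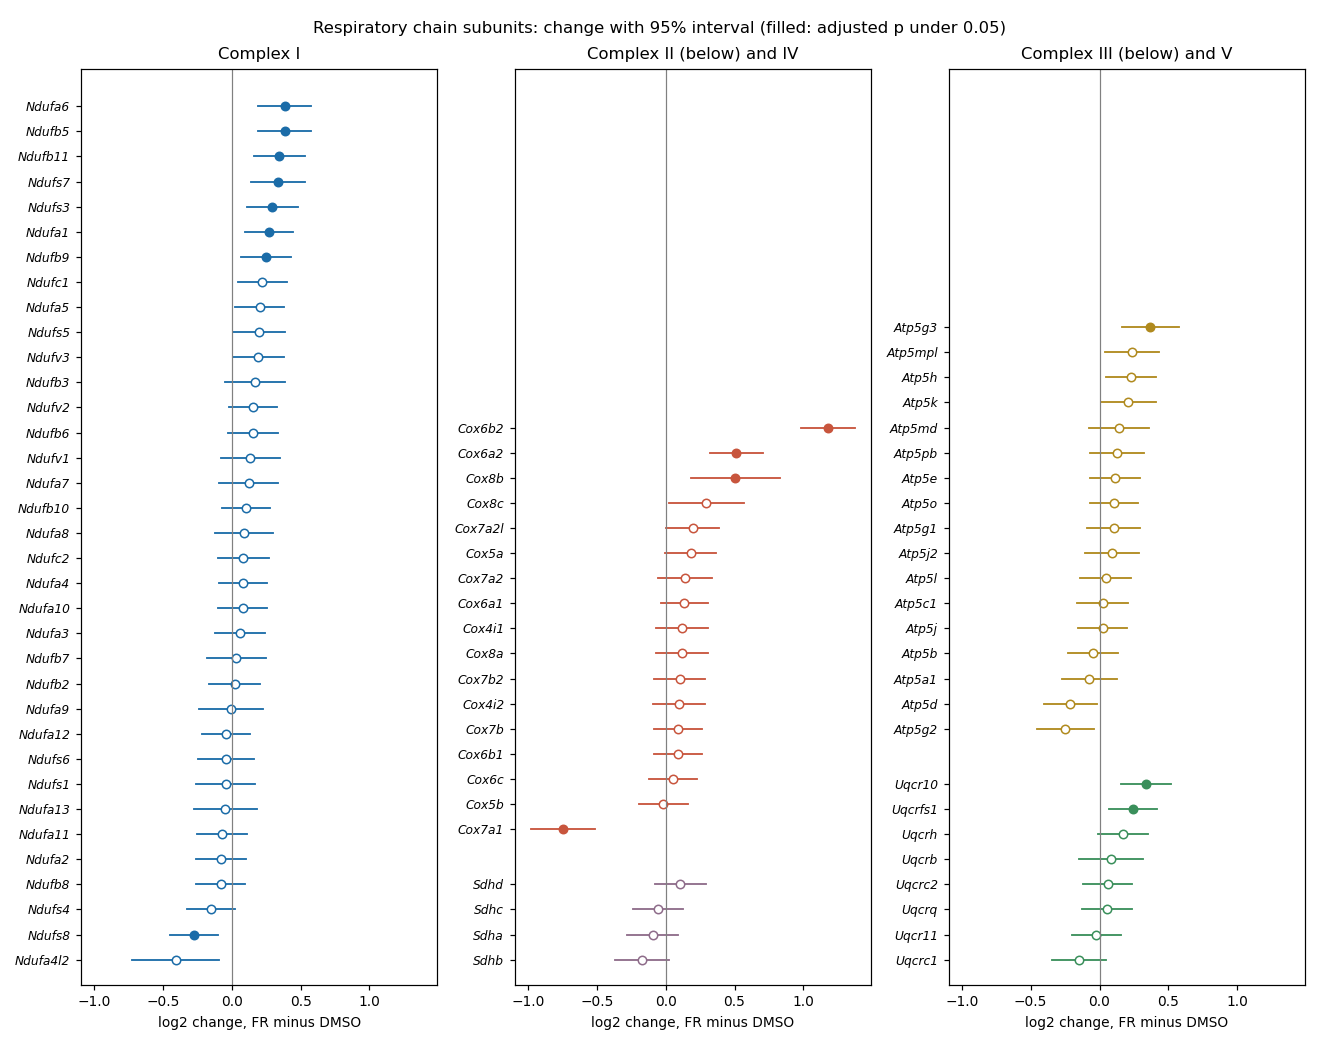
Log2 change (FR minus DMSO, horizontal axis) of each of the 81 subunit genes, set out by complex, with a point for the change and a line for its 95% interval. Filled points are the 15 genes with adjusted p under 0.05; apart from Cox6b2 at 1.18 and Cox7a1 at -0.74, most intervals lie near zero.

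The 35 genes named after complex I gave 7 rises and 1 fall (22.9%, beside 27.9% of all genes), with a median change of 0.09. The largest rise in this complex was that of Ndufa6, an accessory subunit gene of the arm that reaches into the matrix. Its levels were 8.62, 8.65 and 8.72 in DMSO and 9.10, 8.92 and 9.12 in FR. All FR arrays lay above all DMSO arrays, and the change of 0.38 (SE 0.09, 1.31-fold) passed with an adjusted p of 0.00809. Ndufb5, an accessory subunit gene of the membrane arm, read 9.53, 9.56 and 9.71 in DMSO and 10.04, 9.97 and 9.93 in FR. Its rise was also 0.38 (SE 0.09, adjusted p = 0.00739), again with no overlap between the groups. Both calls held under all 15 alternatives, which among the complex I genes was true of these 2 alone.

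Other membrane arm genes rose by less. Ndufb11 went from 10.30 ± 0.07 to 10.65 ± 0.05 (SD), a rise of 0.35 (adjusted p = 0.00993). Its second, dimmer probe set changed by 0.09 (adjusted p = 0.492), and the mean of both gave 0.22 (adjusted p = 0.077). Ndufb11 overlaps Rbm10 in the gene table, and Ndufa1 overlaps Rnf113a1. Where in the genome each probe set of Ndufb11 lies was not examined, so the overlap cannot be tied to either one. Ndufa1, a small membrane arm subunit gene, rose by 0.27 (adjusted p = 0.0257), and Ndufb9 rose by 0.25 (adjusted p = 0.0449), both with every FR array above every DMSO array. Ndufa1 no longer passed without DMSO replicate 1 (adjusted p = 0.0821), 2 (0.0962) or 3 (0.0579) or FR replicate 1 (0.0501). Centring the arrays ended both calls (Ndufa1 0.0938, Ndufb9 0.151), as did a block for the replicate number (Ndufa1 0.0501, Ndufb9 0.074). The Ndufb9 call was also lost without DMSO replicate 1 (0.111), 2 (0.135) or 3 (0.100) or FR replicate 1 (0.0936) or 2 (0.0909). In all, 3 of 9 Ndufb genes rose and none fell (33.3%), and 2 of 12 Ndufa accessory genes rose and none fell (16.7%). Over all genes 27.9% passed.

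The catalytic core of complex I went both ways. Of its nuclear-encoded genes 6 were measured, of which 2 rose, 1 fell and 3 did not pass (50% passed, beside 27.9% of all genes). Ndufs7, which encodes an iron-sulphur subunit next to the coenzyme Q site, read 7.90, 7.96 and 7.96 in DMSO and 8.25, 8.41 and 8.17 in FR (change 0.34, SE 0.09, adjusted p = 0.0164). Ndufs3, a core subunit gene of the same region, went from 9.25 ± 0.09 to 9.54 ± 0.04 (change 0.29, adjusted p = 0.025), and its other probe set gave 0.26. Ndufs7 overlaps a tRNA gene in the gene table. Ndufs8, which encodes another iron-sulphur subunit, read 9.22, 9.17 and 9.23 in DMSO and 8.90, 9.0 and 8.90 in FR. The FR arrays of Ndufs8 all lay below the DMSO arrays, a change of -0.27 (SE 0.08, adjusted p = 0.0272). The flavin-site genes Ndufv1 (0.14, adjusted p = 0.328) and Ndufv2 (0.16, adjusted p = 0.165) and the electron-entry gene Ndufs1 (-0.05, adjusted p = 0.757) did not pass. Without DMSO replicate 1 Ndufs7 no longer passed (0.0616). For Ndufs3 it was lost without DMSO replicate 1 (0.074) or 2 (0.108) or FR replicate 2 (0.0599) and with centring (0.0778). The Ndufs8 call was lost with quantile normalization (0.0719), cyclic loess (0.103) and a block for the replicate number (0.0541). It was also lost without DMSO replicate 1 (0.0887), 2 (0.0626) or 3 (0.0907) or FR replicate 1 (0.0529) or 3 (0.0615).

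Among the other complex I genes, Ndufc1 (0.22, adjusted p = 0.0606), Ndufa5 (0.20, adjusted p = 0.0878), Ndufs5 (0.20, adjusted p = 0.107) and Ndufv3 (0.19, adjusted p = 0.11) had FR arrays that lay wholly above DMSO without passing. Each of them passed as higher under some of the 15 alternatives: 4 for Ndufc1, 4 for Ndufa5, 2 for Ndufs5 and 3 for Ndufv3. The accessory genes Ndufs4 (-0.15, adjusted p = 0.187) and Ndufs6 (-0.04, adjusted p = 0.768) did not pass. Ndufa4, named for complex I although its protein is now placed with complex IV, had a change of 0.08 (SE 0.08, 95% interval -0.09 to 0.25). Its relative Ndufa4l2, a gene induced by low oxygen, read 5.88, 5.26 and 5.58 in DMSO and 5.0, 5.29 and 5.21 in FR. The groups overlapped, both means lay in the background range, and the change of -0.41 did not pass (adjusted p = 0.0561). It passed as lower with centring (0.0187), quantile normalization (0.0214), cyclic loess (0.0171), the variance trend (0.0371) and without DMSO replicate 2 (0.00945).

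None of the 4 genes of complex II passed in limma, and none had an unadjusted p under 0.05. Succinate dehydrogenase belongs to both the respiratory chain and the TCA cycle, and it is the one complex encoded wholly in the nucleus. Sdha, the flavoprotein subunit gene, read 9.55, 9.60 and 9.56 in DMSO and 9.55, 9.52 and 9.37 in FR (change -0.09, adjusted p = 0.426). Sdhb, the iron-sulphur subunit gene, read 9.24, 9.25 and 9.25 in DMSO and 9.13, 9.15 and 8.94 in FR (change -0.17, adjusted p = 0.17). In both genes the FR arrays lay below the DMSO arrays, with FR replicate 3 the lowest. The membrane anchor genes Sdhc (-0.06, adjusted p = 0.64) and Sdhd (0.11, adjusted p = 0.357) had overlapping groups. Over the 4 genes the 95% intervals ran from -0.36 at the lowest to 0.29 at the highest.

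In complex III, 2 of 8 genes rose and none fell (25%, beside 27.9% of all genes), with a median of 0.07. Uqcr10, a small subunit gene, read 10.14, 10.23 and 10.27 in DMSO and 10.50, 10.61 and 10.54 in FR, a rise of 0.34 (SE 0.08, 1.26-fold, adjusted p = 0.0113). It overlaps the non-coding gene Gm51883 in the gene table. Uqcrfs1, which encodes the Rieske iron-sulphur protein, read 8.54, 8.54 and 8.57 in DMSO and 8.84, 8.80 and 8.74 in FR. That rise of 0.25 (SE 0.08) had an adjusted p of 0.0406. The groups of both genes did not overlap. The core protein genes Uqcrc1 (-0.15, adjusted p = 0.245) and Uqcrc2 (0.06, adjusted p = 0.606) and the hinge protein gene Uqcrh (0.17, adjusted p = 0.146) did not pass. The Uqcr10 call was lost without DMSO replicate 1 (0.058). The Uqcrfs1 call was lost without DMSO replicate 1 (0.115), 2 (0.118) or 3 (0.0964) or FR replicate 1 (0.0789) or 2 (0.0731). Centring (0.146) and a block for the replicate number (0.0712) ended the Uqcrfs1 call as well.

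In complex IV, 3 of 17 genes rose and 1 fell (23.5%, beside 27.9% of all genes), all of them genes for tissue-specific forms. Of 7 genes for such forms, 3 rose and 1 fell (57.1%, beside 27.9% of all genes). None of the 10 genes for common subunits passed in limma (1 had an unadjusted p under 0.05). With other processing some common genes passed as higher: Cox5a with quantile normalization, Cox5a and Cox7a2l with cyclic loess, and Cox5a, Cox6a1 and Cox7a2l with the variance trend. A second, dimmer probe set of Cox7b gave 0.26 (adjusted p = 0.0458). The other 12 alternatives left the count at 0. Changes of the common genes ran from -0.02 for Cox5b to 0.20 for Cox7a2l, and their 95% intervals from -0.20 to 0.39. The catalytic subunits of this complex are encoded in mitochondrial DNA and were not analysed here.

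Cox6b2 encodes the testis form of a subunit that faces the space between the membranes. Its levels were 6.86, 6.91 and 6.84 in DMSO and 7.93, 8.17 and 8.05 in FR. All 3 FR arrays stood more than a log2 unit above every DMSO array, a 2.27-fold rise (change 1.18, SE 0.09, 95% interval 0.99 to 1.38, adjusted p = 3.55e-06). Its common counterpart Cox6b1 read 11.82, 11.81 and 11.87 in DMSO and 11.91, 11.97 and 11.88 in FR (change 0.09, adjusted p = 0.434). The 95% interval of the Cox6b1 change was -0.09 to 0.26.

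Cox7a1, the form of heart, skeletal muscle and brown fat, moved the other way. It read 6.84, 7.20 and 7.04 in DMSO and 6.27, 6.40 and 6.18 in FR, a change of -0.74 (SE 0.11, 1.67-fold lower, adjusted p = 0.000389) with no overlap. The common Cox7a2 read 10.36, 10.44 and 10.48 in DMSO and 10.67, 10.56 and 10.46 in FR (change 0.14, adjusted p = 0.26), with FR replicate 3 inside the DMSO range. The related gene Cox7a2l changed by 0.20 (adjusted p = 0.116).

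Cox6a2, the heart and skeletal muscle form of another subunit, rose beside these. Levels of 6.56, 6.74 and 6.69 in DMSO went to 7.25, 7.17 and 7.10 in FR (change 0.51, SE 0.09, 1.43-fold, adjusted p = 0.00133), and the groups did not overlap. It overlaps the integrin gene Itgad in the gene table. Cox6a1, the common form, read 12.13, 12.15 and 12.14 in DMSO and 12.26, 12.25 and 12.30 in FR; here too the groups stood apart, but the change of 0.14 did not pass (adjusted p = 0.217). The calls of Cox6b2, Cox7a1 and Cox6a2 held under all 15 alternatives.

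Cox8b, the muscle and brown fat form of the smallest subunit in rodents, read 5.35, 5.17 and 5.32 in DMSO and 5.47, 5.75 and 6.14 in FR. The DMSO levels lay in the background range, and the FR arrays spread more widely (SD 0.33) than the DMSO arrays (SD 0.10), without overlap. The change of 0.51 (SE 0.15, adjusted p = 0.025) is a rise of at least 1.10-fold against the background level. The olfactory receptor genes that set this level, at a median change of 0.14, were themselves 1.10-fold higher in FR, so the bound is no larger than their shift. It was lost without DMSO replicate 2 (adjusted p = 0.0795) or 3 (0.0522), without FR replicate 2 (0.0584) or 3 (0.0672), with quantile normalization (0.0502) and with cyclic loess (0.053). The common Cox8a changed by 0.12 (adjusted p = 0.332). The testis forms Cox8c (5.37 ± 0.10 to 5.66 ± 0.25, adjusted p = 0.0988) and Cox7b2 (3.51 ± 0.04 to 3.61 ± 0.08, adjusted p = 0.384) and Cox4i2, the lung form that low oxygen induces (5.63 ± 0.04 to 5.73 ± 0.10, adjusted p = 0.414), were at or near the background range and did not pass. Cox8c passed as higher without FR replicate 1 (adjusted p = 0.0164). Cox4i1, the common partner of Cox4i2, changed by 0.12 (adjusted p = 0.318), and Cox7b, that of Cox7b2, by 0.09 (adjusted p = 0.429).

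**Figure D2:**
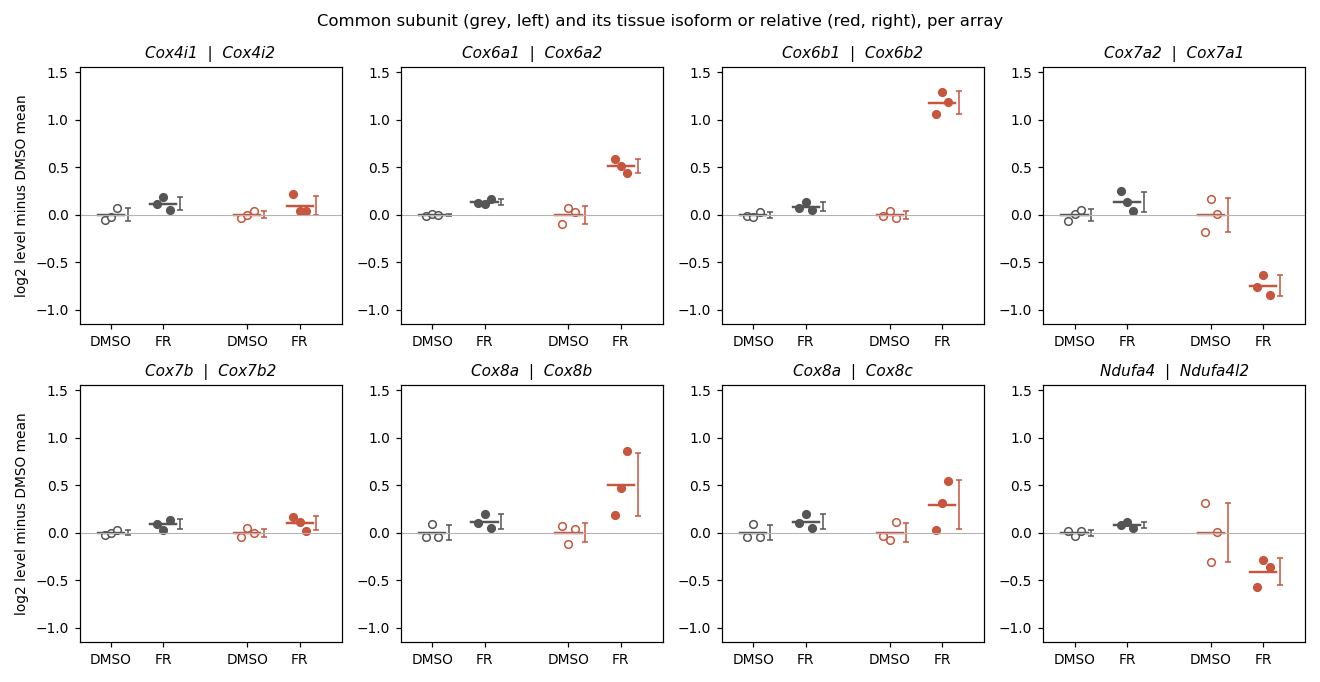
Log2 level of each array minus the gene's DMSO mean (vertical axis) for 8 pairs of a common subunit gene (grey) and its tissue form or relative (red), DMSO as open and FR as filled points, with the mean as a bar and the SD beside it. Cox6b2 stands 1.18 above and Cox7a1 0.74 below its DMSO mean, whereas the common genes all stay within 0.5.

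Within each array the tissue form was also set against its common form, so that a shift shared by both cancels. The difference between Cox6b2 and Cox6b1 grew by 1.09 with FR, that between Cox6a2 and Cox6a1 by 0.38, and that between Cox7a1 and Cox7a2 changed by -0.88. In these 3 pairs the FR arrays did not overlap with DMSO. Each had a two-sided exact permutation p of 0.1, the smallest that 3 against 3 arrays allow, and 0.2 adjusted over the 8 pairs tested. In the other 5 pairs the tissue form or relative lay in the background range in DMSO, so its difference from the common form is not a measured size. Of these 5, the pair of Ndufa4l2 also had FR arrays that did not overlap with DMSO, with an exact permutation p of 0.1. The exact permutation p was 0.2 for Cox8b, 0.5 for Cox8c and 0.8 for both Cox4i2 and Cox7b2.

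Muscle and brown fat forms belong to cells whose markers were followed on the same arrays. The muscle list rose in 5 of 6 cases, among them the cardiac actin gene Actc1 by 2.16 and the fast troponin gene Tnnc2 by 1.81, while the creatine kinase gene Ckm changed by 0.15 (adjusted p = 0.286). Of 5 brown adipocyte markers, 1 rose, the thyroid hormone deiodinase gene Dio2 (5.14 ± 0.04 to 6.31 ± 0.05, adjusted p = 1.85e-06). Ucp1, the uncoupling protein gene that defines brown fat, was in the background range in both groups (3.73 ± 0.12 and 4.08 ± 0.29, adjusted p = 0.0748), as were Cidea and Elovl3. The mean level of this list was 4.54 to 4.68 in DMSO and 4.88 to 5.01 in FR. Whether such cells contributed to the changes of Cox6a2, Cox8b and Cox7a1 was not tested.

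Promoter windows, from RefSeq on GRCm38.p6, are shown for Cox6b2, Cox7a1 and Cox8b, 3 of the 4 tissue forms that passed, and for their common partners. Each runs from 250 bases before to 50 after the annotated gene start, in the direction of the gene. Capitals mark matches, on either strand, to any of 8 short motifs: TGACGTCA (the full cyclic AMP response element, CRE), TGACG (its first part, which lies within it), the palindromic NRF-1 motif, CCGGAAG (ETS factors such as GABPA), AAGGTCA (oestrogen-related receptors), AAGATGGC (YY1), CCAAT and TATAAA. Coordinates in order are chr7:30626065-30626364 (minus strand), chr7:4753045-4753344 (minus), chr9:79759804-79760103 (minus), chr7:30183921-30184220 (plus), chr19:7217567-7217866 (minus) and chr7:140900397-140900696 (minus).
Cox6b1: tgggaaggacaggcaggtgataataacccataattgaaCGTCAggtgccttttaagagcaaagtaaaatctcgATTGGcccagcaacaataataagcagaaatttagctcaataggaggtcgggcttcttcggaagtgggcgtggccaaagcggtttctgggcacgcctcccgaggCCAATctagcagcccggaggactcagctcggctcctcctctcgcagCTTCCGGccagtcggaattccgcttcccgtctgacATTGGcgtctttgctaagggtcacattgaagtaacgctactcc
Cox6b2: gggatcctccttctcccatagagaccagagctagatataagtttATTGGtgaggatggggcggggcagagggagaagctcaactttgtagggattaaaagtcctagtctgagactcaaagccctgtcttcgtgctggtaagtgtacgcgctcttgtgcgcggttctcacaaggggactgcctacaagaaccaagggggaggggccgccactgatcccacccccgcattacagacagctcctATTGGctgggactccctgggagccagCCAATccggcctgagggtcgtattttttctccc
Cox7a2: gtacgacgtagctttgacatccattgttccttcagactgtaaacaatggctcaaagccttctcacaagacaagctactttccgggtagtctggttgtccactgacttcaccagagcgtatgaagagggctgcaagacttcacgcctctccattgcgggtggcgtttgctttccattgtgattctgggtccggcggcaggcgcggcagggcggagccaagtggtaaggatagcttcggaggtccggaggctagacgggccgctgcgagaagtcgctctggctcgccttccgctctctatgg
Cox7a1: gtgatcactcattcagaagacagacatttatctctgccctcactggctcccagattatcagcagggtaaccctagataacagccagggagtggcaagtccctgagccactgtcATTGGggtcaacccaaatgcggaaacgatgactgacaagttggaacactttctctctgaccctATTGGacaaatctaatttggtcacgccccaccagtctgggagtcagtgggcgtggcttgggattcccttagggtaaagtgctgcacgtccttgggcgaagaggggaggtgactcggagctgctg
Cox8a: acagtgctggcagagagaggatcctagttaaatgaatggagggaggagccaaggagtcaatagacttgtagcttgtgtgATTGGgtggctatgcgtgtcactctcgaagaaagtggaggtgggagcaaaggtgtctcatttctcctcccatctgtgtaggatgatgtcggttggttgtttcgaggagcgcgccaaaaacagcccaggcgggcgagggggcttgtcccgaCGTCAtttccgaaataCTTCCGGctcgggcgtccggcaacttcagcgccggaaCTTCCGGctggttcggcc
Cox8b: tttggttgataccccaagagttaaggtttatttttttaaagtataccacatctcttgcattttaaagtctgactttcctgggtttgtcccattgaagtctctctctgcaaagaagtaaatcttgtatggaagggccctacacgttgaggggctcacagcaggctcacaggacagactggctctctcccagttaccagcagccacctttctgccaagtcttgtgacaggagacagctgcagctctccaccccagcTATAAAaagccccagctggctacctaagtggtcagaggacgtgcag

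In these windows the common genes Cox6b1 and Cox8a hold CCAAT, the ETS motif and the first part of the CRE. Their fellow common gene Cox7a2 holds none of the 8 motifs. The tissue forms Cox6b2 and Cox7a1 hold CCAAT alone, and Cox8b holds TATAAA alone. Windows were found for 66 of the 81 subunit genes, 71 in all because some genes have a further start. The ETS motif was in 23.9% of them, beside 8.86% of all 32851 windows of the same length. The YY1 motif was in 14.1%, beside 2.75%, the NRF-1 motif in 7.04%, beside 0.971%, and AAGGTCA in 9.86%, beside 4.72%. The full CRE was in 5.63%, beside 1.79%, and its first part in 38%, beside 20.8%. CCAAT was in 42.3%, beside 37.4%, and TATAAA in 12.7%, beside 13.6%. The subunit windows were richer in G and C (median 57.3%, beside 52.7%). A match describes letters in these windows and does not show that a factor binds.

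In complex V, 1 of 17 genes rose and none fell (5.88%, beside 27.9% of all genes), and the median was 0.10. The gene that rose was Atp5g3, one of several genes for the same subunit c of the rotating ring. Its levels were 10.80, 10.78 and 10.87 in DMSO and 11.21, 11.32 and 11.03 in FR, with all FR arrays above DMSO (change 0.37, SE 0.09, 1.29-fold, adjusted p = 0.0138). Leaving out DMSO replicate 2 ended the call (adjusted p = 0.0515). Atp5g2, which encodes the same ring subunit, went from 9.86 ± 0.14 to 9.61 ± 0.07 and did not pass (change -0.25, adjusted p = 0.072), although its FR arrays all lay below DMSO and its other probe sets gave -0.27 and -0.17. Under 4 of the 15 alternatives Atp5g2 passed as lower. Atp5g1, the remaining ring gene, changed by 0.10 (adjusted p = 0.406). The difference between the ring genes was not tested.

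Of the genes of the catalytic F1 head of complex V, Atp5a1 changed by -0.07, Atp5b by -0.05 and Atp5c1 by 0.02. Atp5e changed by 0.11 and Atp5d by -0.21 (adjusted p = 0.101). None of these 5 genes passed in limma, and 1, Atp5d, had an unadjusted p under 0.05. The FR arrays of Atp5d all lay below DMSO, and it passed as lower under 1 of the 15 alternatives. The 95% intervals of the 5 genes ran from -0.41 to 0.29. The 4 genes of the peripheral stalk that holds the head still had changes from 0.02 for Atp5j to 0.23 for Atp5h (adjusted p = 0.0639), and none passed (1 at an unadjusted p under 0.05). Atp5h passed as higher under 4 of the 15 alternatives. The 5 genes of small membrane subunits had changes from 0.04 for Atp5l to 0.24 for Atp5mpl (adjusted p = 0.0677), and none passed (2 at an unadjusted p under 0.05). Atp5mpl passed as higher under 4 of the 15 alternatives and Atp5k under 1.

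**Figure D3:**
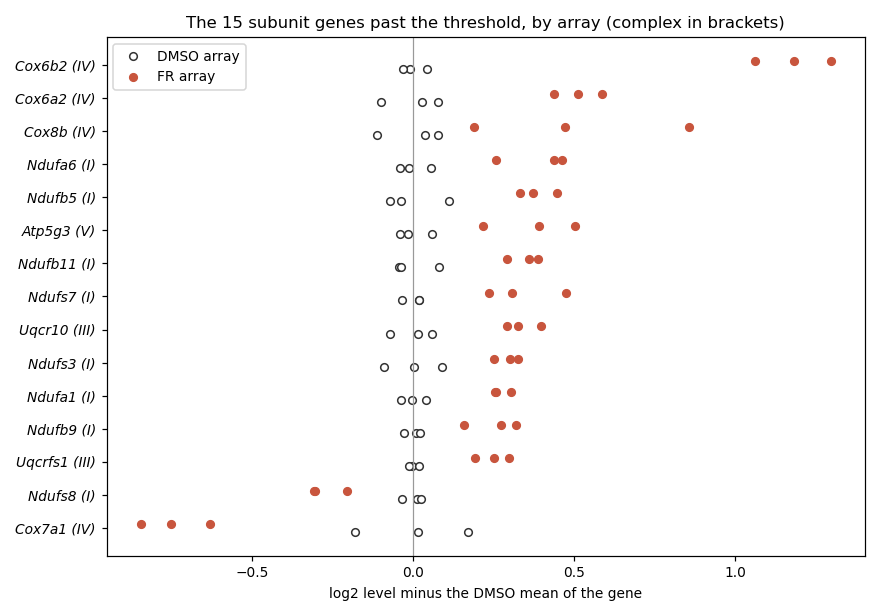
Log2 level of each array minus the gene's DMSO mean (horizontal axis) for the 15 subunit genes past the threshold, with the complex in brackets; open points are DMSO and filled points FR arrays. In every gene the FR arrays lie on one side of all DMSO arrays, and the group means stand farthest apart for Cox6b2 and Cox7a1.

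As subunit genes are mostly bright on the array, they were also read beside other bright genes. Of 1761 genes with a mean level of at least 9, 42.1% passed (14.5% higher and 27.7% lower) and the median change was -0.08. Of the 60 subunit genes at that level, 7 rose and 1 fell, which is 13.3%, and the median was 0.09. The 95% interval lay within 0.5 of zero for 56 of the 60, beside 64.5% of all genes at that level. The 4 tissue forms of complex IV that passed all lay under that level.

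**Figure D4:**
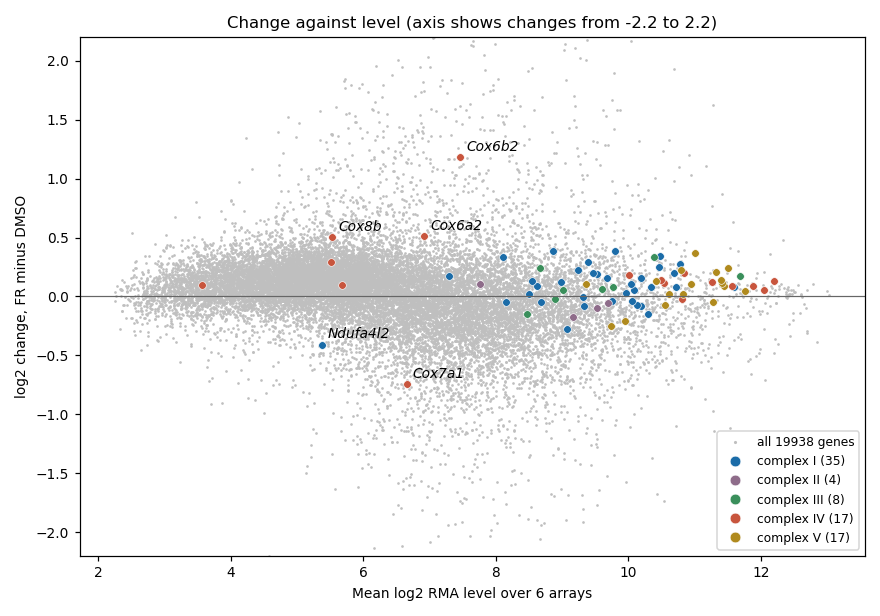
Log2 change (vertical axis) against the mean log2 RMA level over 6 arrays (horizontal axis) for all genes in grey and for the subunit genes coloured by complex; a few genes with larger changes lie outside the axis. The subunit genes form a narrow band near zero at the right, and the named points are tissue forms of complex IV and Ndufa4l2 at lower levels.

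Genes that regulate mitochondrial biogenesis changed in a few members. Of 26 measured, 5 rose and 1 fell (23.1%, beside 27.9% of all genes), with a median of 0.04. The coactivator gene Ppargc1a went from 4.94 ± 0.07, in the background range, to 6.29 ± 0.23 (change 1.36, SE 0.11, at least 1.56-fold, adjusted p = 8.46e-06), and its relative Ppargc1b from 5.89 ± 0.03 to 6.58 ± 0.06 (0.69, adjusted p = 9.35e-05). The fall was that of Mterf2, a mitochondrial transcription termination factor gene (-0.56, adjusted p = 0.00139). Transcription factor genes that act with these coactivators did not pass: Nrf1 changed by -0.19 (adjusted p = 0.105) and Gabpa by -0.14 (0.266). Tfam, whose protein packages mitochondrial DNA, changed by 0.22 and did not pass either (0.109), but it passed with quantile normalization (0.0453). Polrmt, the mitochondrial RNA polymerase gene, rose by 0.38 (adjusted p = 0.00652). Esrra, the gene of oestrogen-related receptor alpha, read 6.22 in both groups (adjusted p = 0.996), with a direction that turned without DMSO replicate 1 or FR replicate 1 or 3.

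Assembly factor genes split, with 5 of 46 higher and 6 lower (23.9%, beside 27.9% of all genes) and a median of 0.03. Ndufaf4, a complex I assembly factor gene, rose from 7.68 ± 0.13 to 8.51 ± 0.13 (change 0.84, SE 0.10, 1.79-fold, adjusted p = 0.000115), more than any complex I subunit gene by value; that difference was not tested. Hccs, whose protein attaches haem to c-type cytochromes, rose by 0.51 and Coa7, a complex IV assembly factor gene, fell by 0.56. Of 14 electron carrier and coenzyme Q synthesis genes, 3 rose and 2 fell (35.7%, beside 27.9% of all genes), with a median of 0.04. Cyc1, the cytochrome c1 gene of complex III, which the choice by symbol leaves out, rose by 0.33 (adjusted p = 0.011; 0.0536 without DMSO replicate 1). Coq10b, a coenzyme Q binding protein gene, fell by 0.50, and Pdss2, of coenzyme Q tail synthesis, fell by 0.32 (adjusted p = 0.0572 without DMSO replicate 3).

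Mitochondrial ribosomal protein genes serve the translation of the chain's mitochondrially encoded subunits. Of 77 such genes, 14 rose and 2 fell (20.8%, beside 27.9% of all genes), with a median of 0.08. The largest rises were those of Mrpl50 (0.51), Mrpl44 (0.42) and Mrps22 (0.41), and the falls were those of Mrpl54 (-0.35) and Mrps15 (-0.29). In protein import, 5 of 26 genes rose and 2 fell (26.9%, beside 27.9% of all genes), with a median of 0.08. The intermembrane chaperone genes Timm9 and Timm10 rose by 0.70 and 0.56 and Tomm5, a small outer membrane import gene, by 0.63. Tomm40, the outer membrane pore gene, changed by 0.09 and did not pass (adjusted p = 0.48). The channel genes Timm17a and Timm17b fell by 0.36 and 0.44.

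Pathways that feed the chain showed few changes. Of 17 TCA cycle genes, none rose and 2 fell (11.8%, beside 27.9% of all genes), with a median of 0.003. Those were Pdha1, of pyruvate dehydrogenase (-0.37, adjusted p = 0.0103), and Ogdh, of oxoglutarate dehydrogenase (-0.32, adjusted p = 0.0389). The Ogdh call was lost without DMSO replicate 1 (0.073), 2 (0.113) or 3 (0.0946) or FR replicate 2 (0.0723) or 3 (0.111). Quantile normalization (0.0627), cyclic loess (0.0757) and a block for the replicate number (0.0554) ended it as well. In fatty acid oxidation, 1 of 18 genes rose and 2 fell (16.7%, beside 27.9% of all genes), with a median of -0.12. The carnitine carrier gene Slc25a20 fell by 0.55 (adjusted p = 0.00384) and Cpt1a, the gate of fatty acid entry, by 0.38 (adjusted p = 0.0242), while the dehydrogenase gene Acadl rose by 0.27 (adjusted p = 0.031). The Cpt1a call was lost without DMSO replicate 2 (0.0929) or 3 (0.0567) or FR replicate 3 (0.0729). The Acadl call was lost without any 1 of the arrays except FR replicate 2 (adjusted p up to 0.107). Centring (0.110) and a block for the replicate number (0.0579) ended the Acadl call as well.

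The list for uncoupling and thermogenesis has 12 genes, among them Cox7a1 and Cox8b. Of these 12, 5 rose and 1 fell (50%, beside 27.9% of all genes), with a median of 0.23. In this list 5 genes lay in the background range in both groups, among them Ucp3, which passed as higher (4.67 to 4.94). Dio2 rose by at least 1.58-fold, the mitochondrial creatine kinase gene Ckmt1 rose 2.06-fold, and Slc25a5, which encodes an ADP/ATP carrier, rose by 0.48. Slc25a4, the carrier gene of muscle, changed by -0.07 (adjusted p = 0.521). The list of genes that low oxygen induces has 12 members, among them Ndufa4l2 and Cox4i2. Of these 12, 3 rose and 3 fell (50%, beside 27.9% of all genes), with a median of 0.06. The growth factor gene Vegfa rose by 0.89, whereas the mitophagy receptor gene Bnip3 fell by 0.38 and the pyruvate dehydrogenase kinase gene Pdk1 by 0.34. Egln3, an oxygen sensor gene in the background range in DMSO, rose at least 1.22-fold (change 0.41, adjusted p = 0.0464), a call lost without any 1 of the arrays except DMSO replicate 2 (0.0519 to 0.160). It was also lost with quantile normalization (0.121), cyclic loess (0.131), centring (0.0673), array weights (0.0553) and every probe set tested (0.0515).

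**Figure D5:**
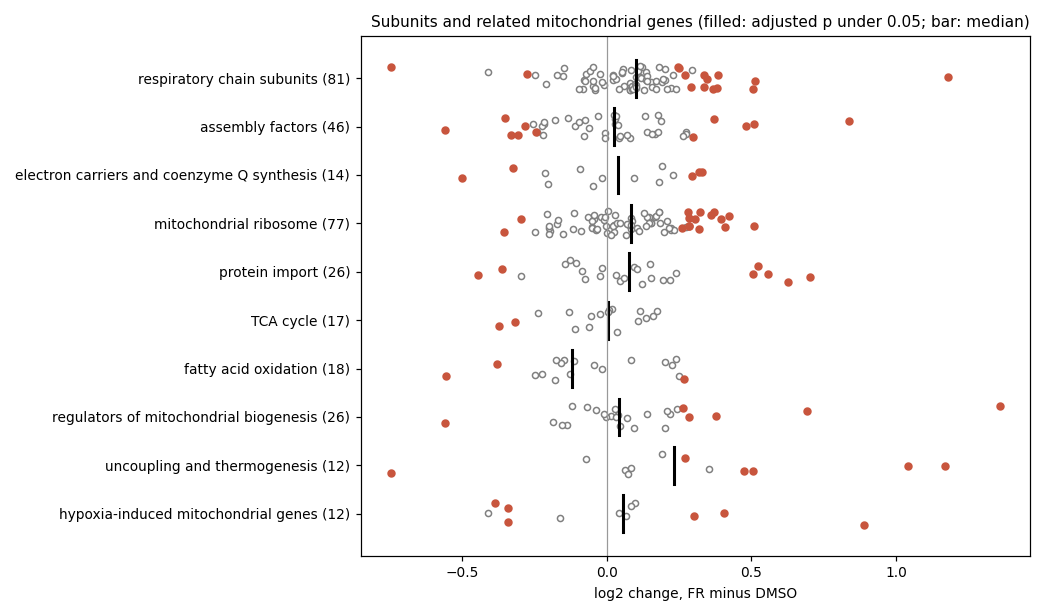
Log2 change (FR minus DMSO, horizontal axis) of each gene of the subunit set and of 9 related lists, with the number of genes in brackets, filled points for adjusted p under 0.05 and a bar at the median. Medians lie between -0.12 for fatty acid oxidation and 0.23 for uncoupling and thermogenesis, and the points beyond 1 are Ppargc1a at 1.36, Cox6b2 at 1.18, Dio2 at 1.17 and Ckmt1 at 1.04. Ppargc1a and Dio2 lay in the background range in DMSO, so their plotted changes are not measured sizes.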

How the data were processed

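Expression was measured on 6 one-colour Affymetrix arrays, 3 titled DMSO and 3 titled FR, and grouped by title. The deposited table holds log2 values for 35556 probe sets, made by the authors with RMA in the oligo package per the submitters' processing notes; the versions are not given in the sources used here. In its usual form RMA subtracts background, makes the arrays' distributions equal and combines the probes of a set. No further normalization was applied. Gene names came from the platform's annotation (21789 probe sets with 1 symbol, of which 21698 were found in the GRCm38.p6 gene table), and the brightest probe set over the 6 arrays stood for a gene, which gave 19938 genes.

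Changes, FR minus DMSO, were tested in R 4.3.3 with the package limma 3.58.1 (functions lmFit and eBayes, group as the only term, two-sided, 95% intervals from the moderated fit) with Benjamini-Hochberg adjustment over all 19938 genes and a threshold of 0.05. The code was checked on simulated data. Levels up to 5.65, the 95th percentile of 1027 olfactory receptor genes in DMSO, are called the background range. For a gene in it in 1 group, the fold is computed against 5.65 and written as at least that value. The olfactory receptor genes were themselves a median of 1.10-fold higher in FR. That shift is not taken off these folds, so they may be too high as lower bounds.

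The subunit genes, related lists and rules were chosen with earlier results of these data known. The split into subunit groups, the level limit of 9, the promoter motifs and the tests of isoform pairs were chosen after values were seen. Genes named are all subunits past the threshold, the Sdh genes, the isoform pairs, 6 regulators of mitochondrial biogenesis, and up to 3 genes with the largest change that passed in each related list; other names were chosen after their values were seen. Alternatives were 3 other normalizations, a filter on dim genes, 2 treatments of several probe sets, a variance trend, array weights, a block for the replicate number, and the omission of 1 array at a time. The sources used here do not state if replicates are separate cultures or animals, so p-values measure only the spread between the samples, and that spread may be technical.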

Additional observations from a re-analysis of the deposited data

How the results depend on the processing

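The calls of Cox6b2, Cox7a1, Cox6a2, Ndufa6 and Ndufb5 held under all 15 alternatives, and the other 10 of the 15 calls were lost under at least 1. The number of subunit genes that rose, 13, became 21 with cyclic loess and 24 with a variance trend and robust moderation, and lay between 7 and 12 with 1 array left out. The number that fell, 2, became 4 with arrays centred on their medians and 5 with the variance trend, and lay between 1 and 2 with 1 array left out. The median change of 0.10 became 0.14 with quantile normalization, 0.0452 with centring and 0.15 with cyclic loess, beside medians over all genes of 0.02, -0.003 and 0.01. It stayed above zero in all 15. Of the 81 subunit genes, 17 turned sign under at least 1 alternative; none of them had passed, and their changes were at most 0.0801 in size. Among these, Sdhc gave 0.018 with cyclic loess, and the regulator Esrra, at -0.00 with all arrays, lay between -0.092 and 0.071 with 1 array left out. With the replicate block, 10 subunit genes rose and 1 fell. Deviations of arrays with the same number correlated at -0.07, 0.05 and -0.03. These values give no sign that the numbers pair the samples, but they cannot exclude it. Without dim genes, 77 subunit genes remained in the test, of which 16 rose and 3 fell. Why the counts moved was not tested. The 3 arrays per group limit the precision, with a median standard error of 0.08 for the subunit genes.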

Other observations

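The 81 subunit genes had 105 probe sets in all, 16 of the genes had several, and 3 probe sets that were not used passed (adjusted over all probe sets), each in the direction of the one used. The first belonged to Cox7b, where the probe set used gave 0.09 and the dimmer one 0.26 (adjusted p = 0.0458). Another belonged to Atp5h, where the probe set used gave 0.23 and the passing one 0.31 (adjusted p = 0.0315). The third was that of Ndufs3, with 0.26 (adjusted p = 0.0438). The 6 probe sets of Atp5l gave changes from 0.04 to 0.07. The brightest probe set stood for each gene, and the positions of probe sets in the genome were not examined. A further 6 probe sets that list a subunit gene together with other symbols were left out.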
